A study of Mus musculus with 6 samples.

Results

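The Hox cluster genes were taken as the protein-coding genes whose symbol is Hoxa, Hoxb, Hoxc or Hoxd followed by a paralogue number, and 39 of the 48709 genes of the deposited count table met this rule. Hoxa genes (11) lie on chromosome 6, Hoxb genes (10) on chromosome 11, Hoxc genes (9) on chromosome 15 and Hoxd genes (9) on chromosome 2 of mm10. RNA came from ovaries of wild-type CD1 mouse embryos at 13.5 days post coitum (dpc). Control dams received ethanol, and exposed dams received acetaminophen (APAP, 30 mg/kg per day) and ibuprofen (IBU, 15 mg/kg per day), given in alternation by gavage every 3 hours, 4 times a day, from 10.5 to 13.5 dpc. Each group had 3 polyadenylated, stranded libraries, and each library held the pooled gonads of embryos from 2 dams, so single embryos and litters cannot be separated. Sample titles of the exposed group mention only Ibu, whereas the exposure field lists APAP+IBU, which is the name used here.

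Hox genes encode homeodomain transcription factors that give cells a position along the head-to-tail axis. Within each cluster the genes stand in the order in which they are used along this axis, with low paralogue numbers acting in the hindbrain and neck, middle numbers in the trunk and the highest numbers in the tail, the limb ends and the cloacal region. They are also expressed in the urogenital ridge, from which mesonephros and gonad form, and Hoxa9 to Hoxa13 pattern the Mullerian duct from oviduct to vagina. Hox proteins bind DNA together with TALE cofactors of the Pbx, Meis and Pknox families, and their genes are kept silent or active by Polycomb and trithorax complexes.

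The homeobox, the 180 bases that encode the 60 residues of the DNA-binding homeodomain, shows how near the paralogues are to each other and hence how far 50-base reads can tell them apart. It was located in GENCODE M21 transcripts of 39 of 39 members by the conserved WFQNR residues of the homeodomain. Hoxa13 (chr6:52257694-52260880, minus strand) and Hoxd13 (chr2:74668310-74671599, plus strand) are shown because they were highest in the same library. These are coding exon sequences, read 5′ to 3′ along the gene, and capitals mark the bases that differ between them.
Hoxa13: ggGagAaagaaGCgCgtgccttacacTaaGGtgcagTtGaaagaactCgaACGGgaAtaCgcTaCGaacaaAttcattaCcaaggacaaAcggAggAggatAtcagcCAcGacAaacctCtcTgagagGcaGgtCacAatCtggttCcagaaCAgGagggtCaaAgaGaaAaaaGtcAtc
Hoxd13: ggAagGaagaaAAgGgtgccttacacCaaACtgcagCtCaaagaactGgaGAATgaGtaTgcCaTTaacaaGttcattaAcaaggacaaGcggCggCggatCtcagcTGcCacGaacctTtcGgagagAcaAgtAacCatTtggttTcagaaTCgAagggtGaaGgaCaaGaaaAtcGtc
Hoxa13 and Hoxd13 shared 133 of 180 bases (73.9%). Over the 42 pairs of the same paralogue number the median identity was 80.6%, with a range from 67.2% to 93.9%, against a median of 60.6% over the other 699 pairs. The longest identical stretch was 47 bases in the first set, in Hoxb3 and Hoxd3, and 52 bases in the second. The 50-base stretches in the transcripts of each member were compared with those of other genes. Non-Hox genes that overlap the locus of the member were left out. Stretches also found in another gene reached 11.3% in Hoxd4 and 8.11% in Hoxd3, which overlap each other. They made 6.40% in Hoxc10 and 3.92% in Hoxc5, which also overlap. Hoxc9 had 1.27%, shared in part with Hoxb9 on another chromosome, and the rest of the members had under 1% by this count.

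The 250 bases before the transcription start were available in RefSeq (GRCm38.p6) for 22 of the 39 members, with 24 start sites. Hoxd8, at chr2:74704365-74704614 on the plus strand, is shown as an abundant member. Hoxa13, at chr6:52260881-52261130 on the minus strand, and Hoxd13, at chr2:74667975-74668224 on the plus strand, are shown as the posterior members that were high together in 1 library. The Hoxa13 and Hoxd13 windows overlap no gene of GENCODE M21, and the Hoxd8 window lies in an intron of the antisense gene Hoxd3os1. Each is read 5′ to 3′ along the Hox gene, and capitals mark matches, on either strand, to TATAAA (the TATA box), to AGGTCA (the core bound by retinoic acid receptors), to TTTATG (a caudal, or Cdx, core), to TGATTNAT (a Hox-Pbx core) or to CACGTG (an E-box).
Hoxd8: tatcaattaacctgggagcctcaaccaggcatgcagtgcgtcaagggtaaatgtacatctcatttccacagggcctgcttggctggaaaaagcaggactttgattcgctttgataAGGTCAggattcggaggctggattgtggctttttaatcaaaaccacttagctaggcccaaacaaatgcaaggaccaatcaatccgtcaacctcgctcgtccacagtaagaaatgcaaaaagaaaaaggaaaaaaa
Hoxa13: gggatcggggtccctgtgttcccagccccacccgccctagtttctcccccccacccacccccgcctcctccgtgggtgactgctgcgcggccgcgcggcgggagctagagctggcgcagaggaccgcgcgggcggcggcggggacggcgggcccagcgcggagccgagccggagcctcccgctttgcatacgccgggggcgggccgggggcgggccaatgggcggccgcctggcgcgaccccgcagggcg
Hoxd13: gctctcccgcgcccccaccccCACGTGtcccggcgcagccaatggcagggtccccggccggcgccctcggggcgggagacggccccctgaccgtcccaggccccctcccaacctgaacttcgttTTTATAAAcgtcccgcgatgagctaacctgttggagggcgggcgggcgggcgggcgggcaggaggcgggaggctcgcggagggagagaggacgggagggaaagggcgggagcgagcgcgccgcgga
The Hoxd8 window held 6 CpG dinucleotides and 1 AGGTCA. The Hoxa13 window held 35 CpG dinucleotides and no match, and the Hoxd13 window held 31, with 1 CACGTG and with TATAAA on both strands in overlapping letters. Hox windows had a median of 12.5 CpG and 58.6% GC, against 6 CpG and 52.4% GC over 32851 windows of all genes. The retinoic acid receptor core was in 25% of Hox windows against 14.02% of all windows, the caudal core in 20.8% against 10.8%, the E-box in 16.7% against 6.02%, the TATA box in 16.7% against 12.4% and the Hox-Pbx core in 8.33% against 2.83%. These matches describe letters only, and binding was not measured.

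Total counts ran from 37811968 to 48954631 per library, and 9100 to 13486 of them fell on Hox genes. Granulosa precursor markers summed to 752 to 1015 CPM (counts relative to the TMM-scaled library total) and germ cell markers to 1400 to 1884 CPM, while Sertoli and testis markers summed to 8.51 to 19.2 CPM. The replicate 3 libraries stood apart in 15 liver markers, which summed to 2036 CPM in control 3 and 3310 CPM in APAP+IBU 3, against 192 to 555 CPM in the other 4 libraries. Spermatid markers summed to 49.5 to 157.5 CPM in controls and 5.35 to 10.02 CPM in exposed libraries. The part of either list in the Hox values was not tested, and Hox values are given for all 6 libraries and also for replicates 1 and 2, which are 4 of the same 6 libraries.

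Of the 39 members, 36 passed the filter on low counts. Hoxb1, a hindbrain gene, had 6 counts in control 2 and 0 in each of the other 5 libraries, and a count of 0 allows up to 3. Hoxc12 had 3, 2 and 1 counts in control 1, 2 and 3 and 0, 0 and 1 in APAP+IBU 1, 2 and 3. Hoxb13 had 8, 4 and 8 counts in the controls and 25, 7 and 12 in the exposed libraries. These members were at the edge of detection in ovary pools of this depth and were not tested.

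Levels were compared between genes as CPM per kilobase of exon. The Hoxd genes were the most abundant cluster in controls, with 38.4% of the summed Hox level per kilobase, followed by Hoxc genes with 31.8%, Hoxa genes with 16.7% and Hoxb genes with 13.1%. Shares in exposed libraries were 37.0%, 32.1%, 17.2% and 13.7% in the same order. The summed level was 40.6 ± 5.13 CPM per kilobase (SD, n = 3) for Hoxd, 33.6 ± 2.34 for Hoxc, 17.7 ± 1.66 for Hoxa and 13.8 ± 2.25 for Hoxb in controls. Hoxd and Hoxc were thus above Hoxa and Hoxb by more than the spread between libraries, while the order within each pair was closer to that spread.

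**Figure D1:**
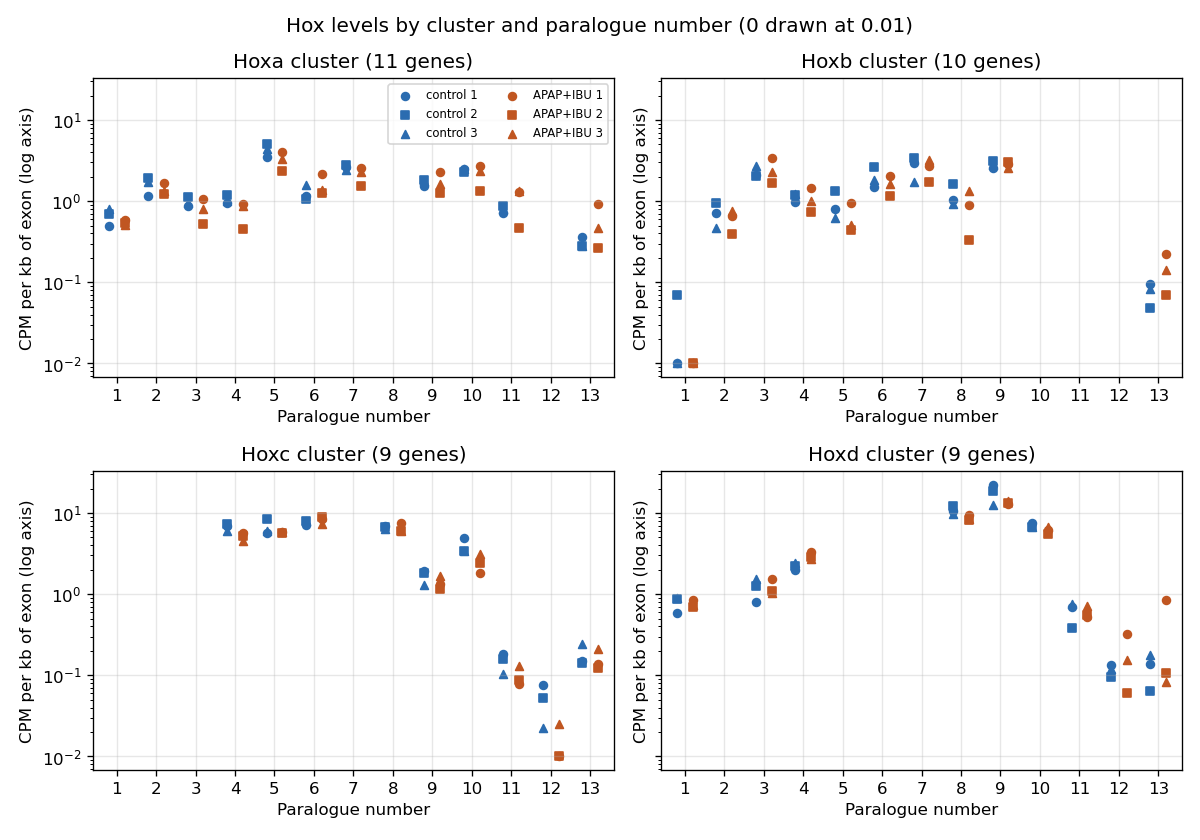
Level of each of the 39 Hox genes in CPM per kilobase of exon (log axis, 0 drawn at 0.01) against paralogue number, with 1 panel per cluster, 3 control libraries in blue and 3 APAP+IBU libraries in orange. Hoxd9 and Hoxd8 stand at the top with 17.8 and 10.8 CPM per kilobase in controls, and the members with numbers 11 to 13 form the low end of Hoxc and Hoxd.

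By paralogue number, members 4 to 8 (15 genes) made 54.6% of the summed control level per kilobase and members 9 and 10 (7 genes) made 35.3%. Members 1 to 3 (8 genes) made 7.79%, and members 11 to 13 (9 genes) made 2.28%. These shares depend on the number of genes in each set. Of single numbers, 9 had the largest share, with 22.7% over 4 genes. Across genes, the rank correlation of control level per kilobase with paralogue number was -0.88 over 9 Hoxc genes, -0.45 over 9 Hoxd genes, -0.0091 over 11 Hoxa genes and 0.38 over 10 Hoxb genes. Genes of a cluster share libraries and chromatin and are not independent, so no test was made. In Hoxc the level per kilobase was flat from Hoxc4 to Hoxc8, lower in Hoxc9 and Hoxc10 and lowest from Hoxc11 to Hoxc13. In Hoxd it increased from Hoxd1 to a peak at Hoxd9 and was low again from Hoxd11 to Hoxd13. The plot of levels by cluster and paralogue number shows both shapes in each of the 6 libraries.

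Hoxd9, which acts with its paralogues at the lumbar level and in the mammary gland, was the most abundant member in every library. Its level per kilobase was 22.1, 18.6 and 12.6 CPM in control 1, 2 and 3 and 13.0, 13.3 and 13.8 CPM in APAP+IBU 1, 2 and 3. The next was Hoxd8, with 10.6, 12.1 and 9.63 CPM per kilobase in the controls and 9.51, 8.15 and 8.49 in the exposed libraries. The ranges of these genes did not overlap, since the lowest Hoxd9 value was above the highest Hoxd8 value. A group of 5 genes followed, with control means per kilobase of 7.62 CPM for Hoxc6, 6.997 for Hoxd10, 6.79 for Hoxc4, 6.67 for Hoxc5 and 6.57 for Hoxc8, whose ranges over the 6 libraries overlapped. The most abundant Hoxa genes were Hoxa5, which is needed for lung and thoracic patterning, at 4.29 ± 0.770 CPM per kilobase (SD, n = 3), and Hoxa7 at 2.62 ± 0.182. In Hoxb the first 2 were Hoxb9 at 2.82 ± 0.305 CPM per kilobase and Hoxb7 at 2.69 ± 0.884, which did not differ beyond their spread.

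The levels of some members rest on exons that other genes use. Of the exon bases of Hoxd3 and Hoxd4, 62.3% and 52.3% were shared on the same strand with each other or with the read-through gene Gm28230, which itself had 73 to 237 counts per library. Hoxc5 and Hoxc10 overlapped in 5.37% and 8.70% of their exon bases. On the same strand, Gm28308 shared 15.0% of Hoxa2 and 8.0% of Hoxa3 exon bases. Gm28309 shared 10.8% of those of Hoxd11 and 5.73% of those of Hoxd10. Antisense genes covered 52.9% of Hoxb3, 34.98% of Hoxa11, 27.3% of Hoxb2 and 25.4% of Hoxa3 exons. How reads in shared bases were assigned, and whether the counting used strand, is not given in the sources used here, so the values of these members are uncertain.

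The exposure comparison asks whether the drug combination changed Hox RNA during the period of sex determination. No Hox gene passed the test with all 6 libraries. By the edgeR quasi-likelihood test with Benjamini-Hochberg correction, 0 of 36 Hox genes reached an adjusted p below 0.05, against 0% of the 20167 genes tested. Before adjustment, 2 Hox genes were below 0.05, Hoxc4 and Hoxc10, both lower in exposed ovaries, where 6.22% of all tested genes passed in either direction and 3.21% were lower. DESeq2 without shrinkage called 0 of 36 Hox genes and 0.953% of the genes it tested. The p-values measure the spread between these pools, and in bulk RNA fewer cells that express a gene and less RNA per cell cannot be told apart.

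The log2 fold change of APAP+IBU over control was below 0 for 25 of 36 Hox genes, against 50.6% of all tested genes. Its median was -0.19 over Hox genes, with quartiles of -0.31 and 0.013, and -0.0047 over all tested genes, with quartiles of -0.21 and 0.22. Other scalings of the libraries gave 24 to 27 Hox genes below 0, and replicates 1 and 2 gave 21. A correction of each library for gene length and GC content (a smooth fit over all genes) gave 23 with a median of -0.13, and with replicates 1 and 2 the correction gave 19 of 36 below 0 with a median of -0.03, so the lower side was then hardly more frequent than the higher. The median moved with single libraries, to -0.054 without control 2, -0.11 without control 3, -0.052 without APAP+IBU 2 and -0.29 without APAP+IBU 1, and with replicates 1 and 2 it was -0.17. Genes below 0 were 7 of 11 in Hoxa, 6 of 8 in Hoxb, 7 of 8 in Hoxc and 5 of 9 in Hoxd. By paralogue number they were 5 of 7 for members 1 to 3, 12 of 15 for members 4 to 8, 5 of 7 for members 9 and 10 and 3 of 7 for members 11 to 13.

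**Figure D2:**
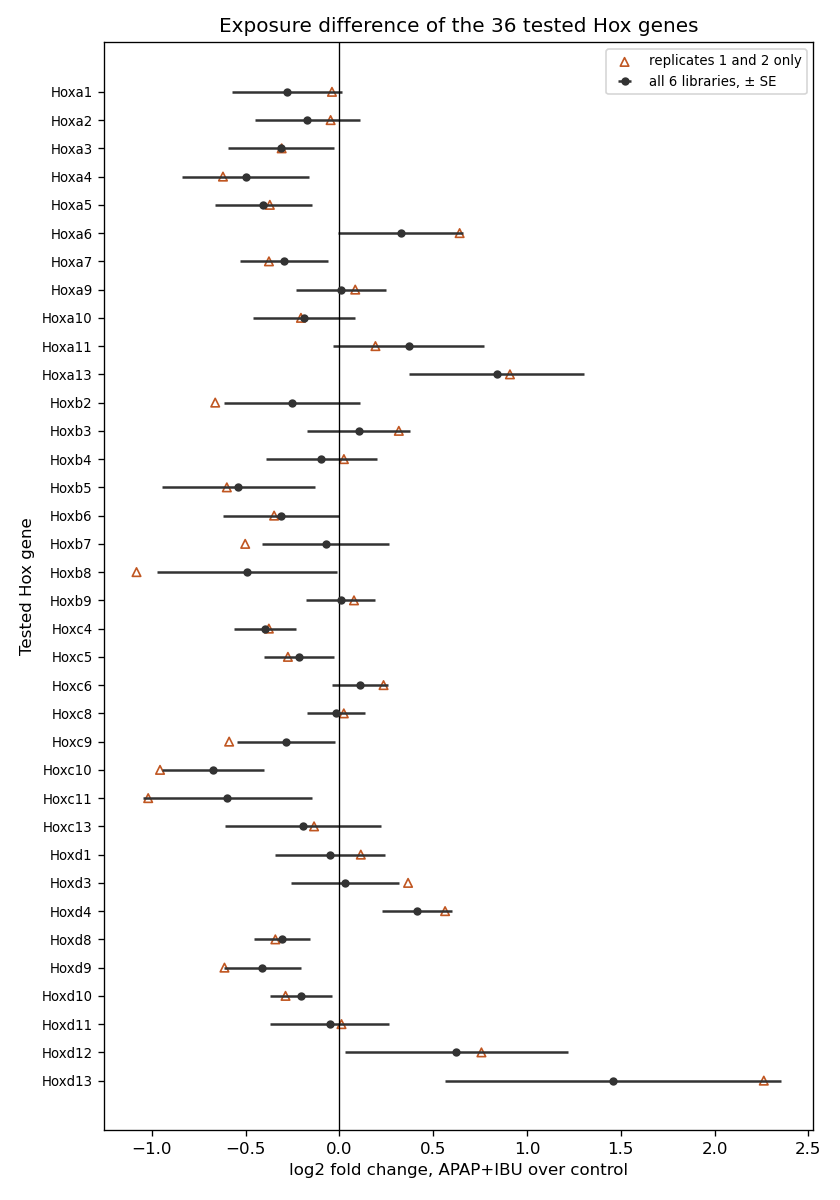
Log2 fold change of APAP+IBU over control for the 36 tested Hox genes, with black points and bars for all 6 libraries (estimate ± SE) and open triangles for replicates 1 and 2 only. Most points lie left of 0, from -0.67 for Hoxc10 to 1.46 for Hoxd13, and the widest bars belong to Hoxd12 and Hoxd13.

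Groups did not overlap in CPM for 5 Hox genes that were lower in exposed libraries (Hoxa4, Hoxc4, Hoxc10, Hoxd8 and Hoxd10), where 5.92% of all tested genes showed this, and for 1 that was higher (Hoxd4), where 4.78% did. The exact permutation p of each was 0.1, two-sided, which is the smallest that 3 against 3 libraries allow. Hoxd10 belongs here by a narrow margin, since control 3 and APAP+IBU 3 both rounded to 12.1 CPM.

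Among the anterior and trunk members, Hoxc4 had 17.9, 18.9 and 15.5 CPM in control 1, 2 and 3 and 14.6, 13.3 and 11.7 CPM in APAP+IBU 1, 2 and 3. Every exposed library was below every control library. Its log2 fold change was -0.40 (SE 0.17, adjusted p = 0.692 in edgeR's test), and with replicates 1 and 2 it was -0.38 (adjusted p = 0.0886 in edgeR's test). The length and GC correction brought it to -0.27 with all libraries and -0.12 with replicates 1 and 2 (adjusted p = 0.592 in edgeR's test). Hoxd4, a cervical-level member on another chromosome, had the opposite sign, with 5.82, 6.59 and 7.14 CPM in controls and 9.66, 8.41 and 7.94 CPM in exposed libraries. The groups were separate, and the log2 fold change was 0.41 (SE 0.19, adjusted p = 0.692 in edgeR's test) with all libraries and 0.56 (adjusted p = 0.0672 in edgeR's test) with replicates 1 and 2. With the correction these were 0.49 and 0.76 (adjusted p = 0.0333 in edgeR's test for the second). Most of the exon bases of Hoxd4 are shared with Hoxd3 or Gm28230. Hoxd3 had a log2 fold change of 0.03 with all libraries and 0.37 with replicates 1 and 2. Gm28230 had 87, 73 and 206 counts in control 1, 2 and 3 and 237, 190 and 198 counts in APAP+IBU 1, 2 and 3. The part of these overlaps in the Hoxd4 values was not tested. Hoxa4, the member of this paralogue group in Hoxa, had 1.52, 1.90 and 1.61 CPM in controls and 1.46, 0.721 and 1.38 CPM in exposed libraries. APAP+IBU 2 was far below the rest, and the log2 fold change was -0.50 (SE 0.34, adjusted p = 0.699 in edgeR's test), or -0.29 with the correction.

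Hoxa5 had 6.50, 9.37 and 8.27 CPM in controls and 7.63, 4.43 and 6.17 CPM in exposed libraries. The groups overlapped, with the lowest value again in APAP+IBU 2, and the log2 fold change was -0.40 (SE 0.26). Hoxb5 had 2.23, 3.75 and 1.75 CPM in controls and 2.64, 1.22 and 1.43 CPM in exposed libraries, with a log2 fold change of -0.54 (SE 0.41). Here control 2 was high and the SD of the controls, 1.04 CPM, was wider than the difference of the means. Hoxc6, a thoracic-level member, had 16.97, 18.96 and 19.14 CPM in controls and 20.3, 21.4 and 17.6 CPM in exposed libraries, with a log2 fold change of 0.11 (SE 0.15). Hoxa7 had 7.66, 7.98 and 6.96 CPM in controls and 7.43, 4.41 and 6.53 CPM in exposed libraries. The groups of Hoxc6 and of Hoxa7 each overlapped, and the log2 fold change of Hoxa7 was -0.30 (SE 0.23).

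Hoxb7 had 4.59, 5.25 and 2.63 CPM in controls and 4.14, 2.69 and 5.02 CPM in exposed libraries. The sets were interleaved, and the log2 fold change was -0.07 (SE 0.34) with a sign that depended on the setting. Hoxb8, its neighbour, had 2.73, 4.28 and 2.44 CPM in controls and 2.37, 0.873 and 3.49 CPM in exposed libraries, with a log2 fold change of -0.49 (SE 0.48). APAP+IBU 2 was the lowest library and control 2 the highest, and the rest overlapped. Hoxd8 had 29.1, 33.3 and 26.4 CPM in controls and 26.1, 22.4 and 23.3 CPM in exposed libraries. All 3 exposed libraries were below the controls, and the log2 fold change was -0.31 (SE 0.15, adjusted p = 0.692 in edgeR's test), or -0.34 with replicates 1 and 2 (adjusted p = 0.105 in edgeR's test). With the length and GC correction it was -0.17 over all libraries and -0.03 with replicates 1 and 2 (adjusted p = 0.906 in edgeR's test).

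In the lumbar members, Hoxd9 had 47.2, 39.8 and 26.9 CPM in controls and 27.7, 28.4 and 29.6 CPM in exposed libraries. The exposed libraries lay within 2 CPM of each other, while the controls spanned a wider range and control 3 was the lowest of all. The log2 fold change was -0.41 (SE 0.21, adjusted p = 0.692 in edgeR's test). With replicates 1 and 2 it was -0.61 (SE 0.12, adjusted p = 0.0128 in edgeR's test). Without control 3 alone it was also -0.61 (adjusted p = 0.0438 in edgeR's test). The length and GC correction brought the value to -0.16 with all libraries and to -0.03 with replicates 1 and 2 (adjusted p = 0.875 in edgeR's test), so, of the settings tried, the call was made only in those without control 3 and without the correction. Hoxb9 had 6.56, 8.11 and 7.14 CPM in controls and 7.47, 7.80 and 6.64 CPM in exposed libraries. Its means were 7.27 ± 0.786 and 7.30 ± 0.598 CPM (SD, n = 3), and the log2 fold change was 0.0067 (SE 0.19).

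Hoxc10, which acts in hindlimb motor neurons and lumbar patterning, had the most negative log2 fold change of the 36 genes. Its level was 9.44, 6.56 and 6.52 CPM in control 1, 2 and 3 and 3.47, 4.67 and 5.99 CPM in APAP+IBU 1, 2 and 3. The 3 exposed libraries were all below the 3 controls. The log2 fold change was -0.67 (SE 0.27, adjusted p = 0.692 in edgeR's test) over all libraries, and -0.96 (SE 0.26, adjusted p = 0.0345 in edgeR's test) with replicates 1 and 2. With the correction as well, the latter was -0.74 (adjusted p = 0.0860 in edgeR's test). Its neighbour Hoxc11 was scarce, with 14, 12 and 9 counts in controls and 8, 8 and 10 counts in exposed libraries, and had a log2 fold change of -0.60 (SE 0.45). With replicates 1 and 2, Hoxc10 and Hoxd9 were the 2 of 36 Hox genes called, both lower, against 27.2% of all 20633 genes tested there, or 12.9% in the lower direction. Before adjustment, 7 Hox genes were below 0.05 there, against 41% of all genes. Both shares of Hox genes were below those of all genes. Both calls were lost with the length and GC correction in the same libraries, where Hoxd4 was the 1 Hox gene called, higher, against 13.9% of all genes.

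Many Hox genes shifted in the same library, though not evenly among clusters. APAP+IBU 2 was the lowest library for 19 of 36 tested Hox genes (52.8%), where it was lowest for 13.7% of all tested genes, and its mean deviation from the gene means was -0.41 on the log2 CPM scale. Control 2 was the highest library for 14 and APAP+IBU 1 for 11 Hox genes, with mean deviations of 0.14 and 0.23. The drop in APAP+IBU 2 was uneven among clusters, with -0.54 for Hoxa, -0.61 for Hoxb, -0.22 for Hoxc and -0.26 for Hoxd. The median SD within groups was 0.36 on the log2 CPM scale for Hox genes and 0.29 for all tested genes. The smallest values were 0.12 for Hoxc6 and for Hoxd10, and the widest were 1.34 for Hoxd13 and 0.81 for Hoxd12.

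**Figure D3:**
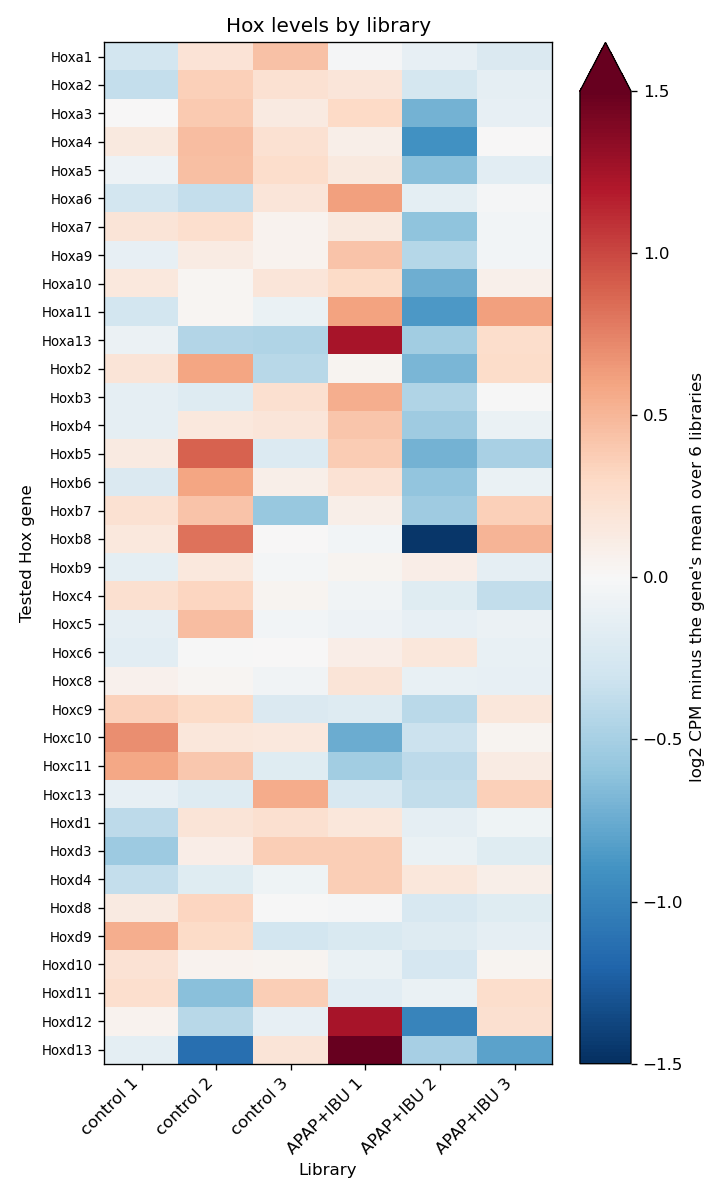
Log2 CPM of each of the 36 tested Hox genes in each library, as the difference from the mean of that gene over 6 libraries (blue below, red above, and values above 1.5 drawn in the last colour). The APAP+IBU 2 column is blue for most Hoxa and Hoxb genes, and Hoxa13, Hoxd12 and Hoxd13 are dark red in APAP+IBU 1.

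Markers of the mesonephros, which adjoins the gonad and can be taken with it, varied in the same library. Of 12 mesonephric tubule and duct markers, 8 were lowest in APAP+IBU 2, where 13.7% of all tested genes were lowest. The mean deviation of the 12 markers there was -0.50 on the log2 CPM scale. Cdh16, a cadherin gene of kidney epithelium, had 24.3, 38.7 and 39.3 CPM in controls and 41.2, 17.3 and 50.2 CPM in exposed libraries. Wnt9b, a duct signal, had 0.830 CPM in APAP+IBU 2 against 2.31 to 3.83 CPM elsewhere. Calb1 went the other way and was the 1 marker highest in APAP+IBU 2, with 20.2 CPM against 7.86 to 18.3 CPM elsewhere. Summed over the list, levels were 225 to 266 CPM in controls and 231 to 244 CPM in exposed libraries, of which Emx2, also a gene of the gonadal surface, made 124 to 177 CPM. None of the 12 was at 0 in any library. Of 10 neural crest and autonomic neuron markers, 6 were lowest in APAP+IBU 2, with a mean deviation of -0.92. A low value there was not particular to these lists. Among others, spermatid markers had -2.10, Mullerian duct markers -0.46, adrenal cortex markers -0.45 and the hindgut list described below -0.50. Granulosa precursor, germ cell, and skeletal muscle and cartilage markers were above 0 there, at 0.22, 0.10 and 0.33. The part of these tissues in the Hox values was not tested. Without APAP+IBU 2, 21 of the Hox genes had a log2 fold change below 0 and 15 above. The number below 0 was 25, 22 and 23 without control 1, 2 and 3, and 30 and 24 without APAP+IBU 1 and 3.

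**Figure D4:**
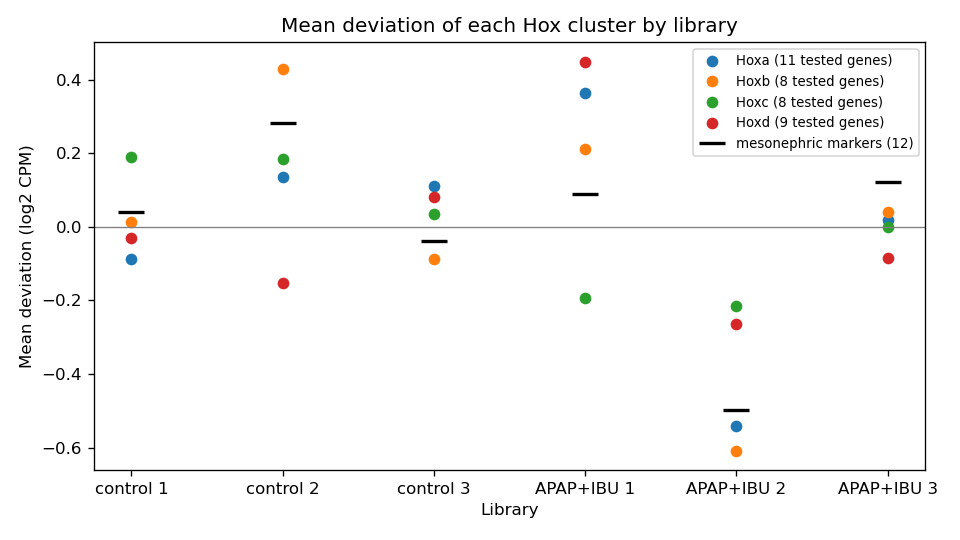
Mean deviation on the log2 CPM scale from the gene means over 6 libraries, per library, for the tested genes of each Hox cluster (points) and for 12 mesonephric markers (bars). In APAP+IBU 2 all clusters are below 0, with Hoxa and Hoxb at -0.54 and -0.61 and the mesonephric markers at -0.50. Of the lists not drawn, Mullerian duct (-0.46) and adrenal cortex (-0.45) markers were also low there, while granulosa precursor markers (0.22) were above 0.

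Some of the posterior members 11 to 13 were high in another library. Of the 7 tested, Hoxa13, Hoxd12 and Hoxd13 were highest in APAP+IBU 1, while Hoxc11 was lowest there and Hoxc11, Hoxc13 and Hoxd11 had deviations of -0.53, -0.24 and -0.16 from their gene means on the log2 CPM scale. The mean deviation of the 7 was 0.65 on the log2 CPM scale in APAP+IBU 1 and -0.54 in APAP+IBU 2. Hoxd13, which patterns digits and the genital tubercle, had 13, 6 and 19 counts in control 1, 2 and 3 and 107, 12 and 8 counts in APAP+IBU 1, 2 and 3. This is 0.341, 0.161 and 0.438 CPM against 2.11, 0.262 and 0.208 CPM. One library thus stood far above the other 5, which overlapped. The log2 fold change of 1.46 (SE 0.90, adjusted p = 0.698 in edgeR's test) became -0.42 without APAP+IBU 1. Hoxd12 had 0.341, 0.241 and 0.299 CPM in controls and 0.808, 0.153 and 0.390 CPM in exposed libraries, and its log2 fold change of 0.62 (SE 0.59) became -0.13 without that library.

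Hoxa13, needed for the hindgut, the cloaca and the lower genital tract, had 0.892, 0.696 and 0.691 CPM in controls and 2.27, 0.655 and 1.15 CPM in exposed libraries. APAP+IBU 1 was again highest and APAP+IBU 2 lowest. The log2 fold change was 0.84 (SE 0.47, adjusted p = 0.692 in edgeR's test), and it stayed above 0 in the settings tried, with 0.23 as the smallest value. Hoxa11, which acts in the uterus, kidney and forelimb, had 1.63, 2.01 and 1.84 CPM in controls and 3.00, 1.07 and 3.02 CPM in exposed libraries. Its controls lay between the exposed libraries, and the log2 fold change was 0.37 (SE 0.40). The untested Hoxb13 had its highest value, 0.493 CPM, in APAP+IBU 1 as well. Hoxc13, a hair and tail gene, did not, with 0.335 CPM there and 0.306 to 0.599 CPM over all libraries.

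**Figure D5:**
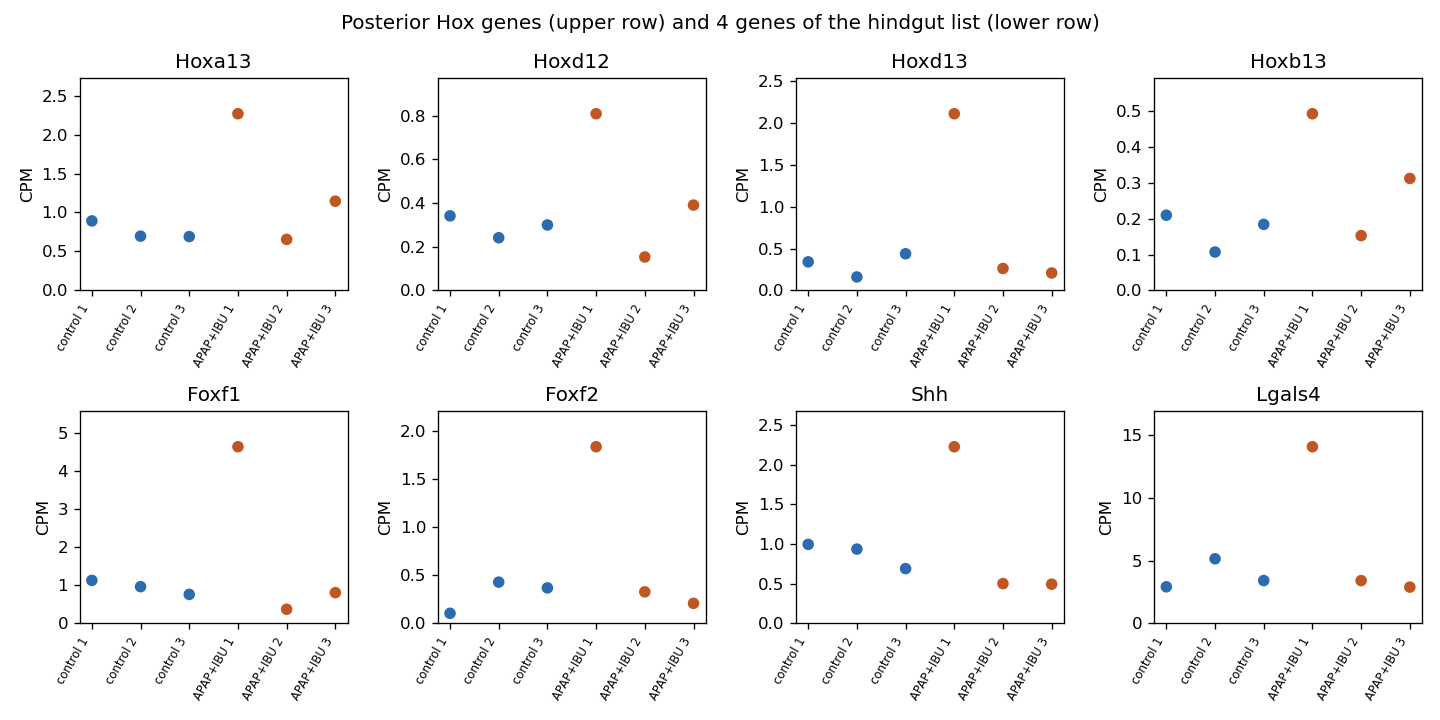
CPM in each library of 4 posterior Hox genes (upper row) and of 4 genes of the hindgut and cloacal list (lower row), with controls in blue, APAP+IBU in orange, and a separate axis from 0 in each panel. The genes drawn were chosen after their values were seen, and all 8 are highest in APAP+IBU 1, from 0.493 CPM for Hoxb13 to 14.1 CPM for Lgals4. Their likeness therefore follows from the choice. Of the whole hindgut list, 6 of 12 genes were highest there, and Hoxa11, Hoxc11, Hoxc13 and Hoxd11, which are not drawn, were highest in other libraries.

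A list of 12 genes of the hindgut and cloacal region was looked at after these values had been seen, and is therefore a description. APAP+IBU 1 was the highest library for 6 of the 12, with a mean deviation of 0.70 on the log2 CPM scale. Foxf1, a gene of gut mesenchyme, had 4.63 CPM there against 0.371 to 1.13 CPM in the other libraries, and Foxf2 had 1.83 CPM against 0.105 to 0.428 CPM. Shh, the gut and cloacal signal, had 2.23 CPM against 0.495 to 0.997 CPM, and Lgals4, a gut epithelial lectin, had 14.1 CPM against 2.89 to 5.14 CPM. Others did not follow, such as Cdx2, with 5.86 CPM in that library against 5.61 to 15.3 CPM elsewhere. The summed level of the list was 75.3 to 98.3 CPM in controls and 56.2 to 93.1 CPM in exposed libraries, and none of its genes was at 0 in any library. The part of such tissue in the posterior Hox values was not tested.

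The TALE cofactors, which bind DNA with Hox proteins, held no member that passed the test with all 6 libraries. Of 9 tested, 0 were below 0.05 in edgeR's test before or after adjustment, and 6 had a log2 fold change below 0. Their summed level was 754 to 772 CPM in controls and 691 to 816 CPM in exposed libraries. The most changed by size with all libraries was Pbx4, with 2.05, 1.63 and 1.47 CPM in controls and 1.34, 1.16 and 1.33 CPM in exposed libraries. Its log2 fold change was -0.43 (SE 0.27, adjusted p = 0.698 in edgeR's test). With replicates 1 and 2, 0 of the 9 were called, against 27.2% of all genes. With the length and GC correction in these libraries 2 were called, both lower, against 13.9% of all genes. These were Meis1 (-0.56, adjusted p = 0.0281 in edgeR's test) and Meis2 (-0.59, adjusted p = 0.0284 in edgeR's test).

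The Cdx factors, which switch on trunk Hox genes, were listed with the homeobox genes Evx1, Evx2, Mnx1, Gsx1, Gsx2 and Pdx1. Most of these 9 genes were at the edge of detection, and 3 of them were tested. Cdx1 had 3.46, 2.76 and 1.73 CPM in controls and 1.74, 1.62 and 2.76 CPM in exposed libraries, with a log2 fold change of -0.38 (SE 0.35). Cdx2 had 15.3, 6.85 and 6.77 CPM in controls and 5.86, 5.61 and 10.96 CPM in exposed libraries, and its log2 fold change was -0.37 (SE 0.40). For both, the replicate 3 library was the highest of the exposed group and the lowest of the controls. Evx1, beside Hoxa13, had 0.369 to 0.911 CPM over all libraries and a log2 fold change of 0.31 (SE 0.40).

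Of 27 Polycomb and trithorax genes, which hold Hox chromatin off or on, 0 passed edgeR's test on all libraries after adjustment and 1 was below 0.05 before it. This was Kmt2a (MLL1), a methyltransferase that maintains Hox expression, with 116, 139 and 233 CPM in controls and 272, 308 and 207 CPM in exposed libraries. Control 3 lay above APAP+IBU 3, and the log2 fold change was 0.69 (SE 0.27, adjusted p = 0.692 in edgeR's test). With replicates 1 and 2 it was 1.21 (adjusted p = 0.00623 in edgeR's test), and 6 of the 27 genes were called higher and 2 lower there, where 14.2% of all genes tested were called higher and 12.9% lower. The 8 called are thus near the 27.2% over all genes. With the length and GC correction in these libraries, 2 were called higher and 2 lower, against 13.9% of all genes in either direction, and Kmt2a had 0.82 (adjusted p = 0.00959 in edgeR's test). The demethylase gene Kdm6a had 74.3, 88.3 and 150 CPM in controls and 151, 169 and 121 CPM in exposed libraries, with a log2 fold change of 0.50 (SE 0.26). For both genes the controls of replicates 1 and 2 were below the exposed libraries, and replicate 3 was the reverse.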

How the data were processed

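Pools of 13.5 dpc ovaries were sequenced by the authors as polyadenylated stranded libraries (HiSeq, paired 50-base reads). The submitters' processing notes name bcl2fastq 2.17.1.14, TopHat2 2.0.14, Bowtie2 2.1.0, HTSeq 0.6.1 and mm10, and the methods name Ensembl genes. The deposited values are raw counts per gene, made by the authors without normalisation. The strand and overlap settings of the counting are not given in the sources used here.

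Groups and replicate numbers follow the exposure labels and titles. Names, positions and exon lengths came from GENCODE M21 (GRCm38), which matched 48349 of 48709 genes, and promoters from RefSeq (GRCm38.p6). The counts were fitted in edgeR 4.0.16 (R 4.3.3) with TMM scaling, the filterByExpr filter (20167 genes kept) and the two-sided quasi-likelihood test, with Benjamini-Hochberg correction over all tested genes at 0.05. DESeq2 1.42.0 was an alternative. SE is the log2 fold change divided by the square root of the F statistic. CPM used TMM totals, and log2 CPM a prior count of 1. Exact permutation tests of log2 CPM enumerated all regroupings of 6 libraries. Scripts were tested on simulated data. No library was a duplicate, since pairs within groups differed by a chi-square per degree of freedom of 17.2 to 143. The bound of 3 for a count of 0 covers counting error only, while SD and SE also hold the spread between libraries.

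The Hox genes and the other lists were chosen with earlier results of these data known. Values in every library were given for the 2 most abundant genes of each cluster per length in controls, the 5 highest and 5 lowest log2 fold changes, and any called gene. Of each list, genes past the test or with the largest changes were named. Other genes named beside a count, a range or an overlap, and the hindgut list, were chosen after their values were seen. Alternatives were other scalings, filters and tests, the replicate number as a block, a loess correction for length and GC (span 0.3), replicates 1 and 2 only, and leaving out each library. The length and GC correction of genes outside the Hox set was added after the data were seen. Other assays of the study were not used here.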

Additional observations from a re-analysis of the deposited data

How the results depend on the processing

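The count of Hox genes called was 0 of those tested under the other scalings, filters and tests, and 2 with replicates 1 and 2 only (Hoxc10 and Hoxd9). It was 1 with replicates 1 and 2 and a length and GC correction, which was Hoxd4 (log2 fold change 0.76, adjusted p = 0.0333 in edgeR's test) in place of Hoxc10 and Hoxd9, and 0 to 1 on leaving out 1 library. The cause of these shifts was not tested. Over all genes the count rose from 0 to 120 with all genes of at least 1 count, 192 with DESeq2 without shrinkage, 168 with its beta prior, 5607 with replicates 1 and 2 only, 2870 with these and the correction, and 0 to 1064 on leaving out 1 library. At an unadjusted p under 0.05 it was 1254. The Hox median stayed below 0 throughout, from -0.29 to -0.03.

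Deviations from the group means correlated by -0.069, -0.015 and -0.044 between libraries of the same number. These values showed no pairing by replicate number, but with 3 libraries per group they cannot exclude it. With the replicate block 0 Hox genes and 2 genes in all were called, and with the block and the length and GC correction 0 and 34. The block changed no Hox call.

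The sign of Hoxb9 turned with upper quartile scaling (-0.021) and with at least 10 counts in every library (-0.0045), and ran from -0.063 to 0.092 on leaving out 1 library. Hoxb7 turned with the length and GC correction (0.11, also 0.11 with the block) and ran from -0.32 to 0.13 on leaving out 1 library. Leaving out 1 library gave -0.13 to 1.02 for Hoxd12 and -0.42 to 1.88 for Hoxd13, and each was below 0 only without APAP+IBU replicate 1. Hoxc11, Hoxd12 and Hoxd13 gave no value with at least 10 counts in every library. Counts under 20 for Hoxc11, Hoxc12, Hoxb1 and most libraries of Hoxd12 and Hoxd13 limit what can be seen of these genes, as do 3 libraries per group.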

Other observations

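The Hox clusters also hold noncoding genes. Of 43 annotated there, 13 had no count in any library and 15 passed the filter on low counts. None of the 15 passed edgeR's test after adjustment with all 6 libraries. Before adjustment 1 was below 0.05, against 6.22% of all tested genes, and 8 had a log2 fold change below 0, against 50.6%. Gm53, a long noncoding RNA gene upstream of Hoxb9, had 6.09, 8.59 and 10.02 CPM in control 1, 2 and 3 and 12.6, 12.5 and 8.59 CPM in APAP+IBU 1, 2 and 3. Its log2 fold change was 0.45 (SE 0.25), and 0.80 with replicates 1 and 2 (adjusted p = 0.0303 in edgeR's test), or 0.86 with these and the length and GC correction (adjusted p = 0.0261 in edgeR's test). Gm53 was the 1 of the 15 called in each of these settings, where 27.2% and 13.9% of all genes were called. The hairpin locus of Mir196a-1, between Gm53 and Hoxb9, had 0.892, 0.776 and 0.852 CPM in controls and 1.64, 1.66 and 1.02 CPM in exposed libraries. All exposed libraries were above the controls, with a log2 fold change of 0.78 (SE 0.31, adjusted p = 0.692 in edgeR's test). Libraries of polyadenylated RNA count precursor or overlapping transcripts at such a locus and do not measure the mature miRNA. Hoxaas2, an antisense gene near Hoxa2 and Hoxa3, had 0.498, 0.482 and 0.484 CPM in controls and 0.315, 0.262 and 0.442 CPM in exposed libraries, with a log2 fold change of -0.53 (SE 0.37). Hoxa11os, which covers part of Hoxa11, had 2.50 CPM in APAP+IBU 1, the library in which Hoxa13, Hoxd12 and Hoxd13 were highest, against 0.655 to 1.23 CPM elsewhere.

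Genes that flank the clusters and are not Hox genes held few differences with all 6 libraries. Of 10 counted, 9 were tested, 0 passed edgeR's test after adjustment and 1 was below 0.05 before it, against 6.22% of all tested genes. This was Lnpk, beyond Evx2 at the Hoxd cluster, with 15.3, 20.4 and 27.3 CPM in controls and 36.001, 33.04 and 24.6 CPM in exposed libraries. Control 3 overlapped the exposed libraries, and the log2 fold change was 0.57 (SE 0.24, adjusted p = 0.692 in edgeR's test), or 0.97 with replicates 1 and 2 (adjusted p = 0.00847 in edgeR's test). Lnpk was the 1 of the 9 called with replicates 1 and 2, where 27.2% of all genes were called. The length and GC correction brought its log2 fold change to 0.17 with all libraries and 0.21 with replicates 1 and 2 (adjusted p = 0.246 in edgeR's test). Mtx2, at the other end of the same cluster, had a log2 fold change of -0.24 (SE 0.11, adjusted p = 0.692 in edgeR's test), with 98.0, 88.7 and 83.6 CPM in controls and 74.7, 77.0 and 76.8 CPM in exposed libraries. With replicates 1 and 2 and the correction it was -0.51 (adjusted p = 0.0204 in edgeR's test). In that setting 3 of the 9 flanking genes were called, all lower, against 13.9% of all genes. Beside Mtx2 these were Skap2 (-0.82, adjusted p = 0.0109 in edgeR's test) and Hibadh (-0.43, adjusted p = 0.0332 in edgeR's test). The ends of the Hoxd cluster thus gave values of opposite sign, neither of which passed the test with all 6 libraries.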
